A study of Mus musculus with 6 samples.

Results

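The genes described here are 10 markers and regulators of uterine gland formation: the transcription factor genes Foxa2, Sox9, Sox17 and Pax8, the receptor gene Lgr5, and the genes for the secreted proteins Cxcl15, Lif, Spink1, Prss28 and Prss29. They were chosen by gene symbol, and all 10 were found among the 20637 genes of each deposited table. Whole uteri of female mice were collected on postnatal day 21, and poly(A) RNA was sequenced in 3 libraries from Nat10 f/f mice, which carry the floxed allele and served as controls, and 3 from Nat10 d/d mice, in which Nat10 was deleted. The labels give neither the Cre driver, the strain nor the cells in which the deletion took place. They number replicates but do not say that each is a separate animal, so that p-values measure the spread between these libraries. Levels are FPKM, fragments per kilobase of transcript, scaled to the fragments mapped in the library.

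Uterine glands are not present at birth in the mouse. They form after birth, when the luminal epithelium that lines the cavity buds into the stroma, and they later secrete proteins that the embryo needs for implantation. FOXA2 is the transcription factor that marks gland epithelium in the uterus and is required for gland formation, and SOX17, SOX9 and PAX8 are expressed in epithelium of the female tract. LGR5 is the receptor for R-spondins, which strengthen Wnt signalling, and it marks stem or progenitor cells in many epithelia. Lif is a cytokine that glands release around implantation.

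Nat10, which encodes an RNA cytidine acetyltransferase, was at 13.2, 16.4 and 9.95 FPKM in Nat10 f/f replicates 1 to 3 and at 5.57, 5.23 and 5.53 FPKM in Nat10 d/d replicates 1 to 3. Its groups did not overlap (log2 change -1.11, SE 0.17; limma adjusted p 0.669). Nat10 d/d replicate 2 stood apart on the first principal component, with a score of -40.18 against -4.61 to 25.07 in the other 5 libraries. The values at single-fragment level put the depth of the libraries at an estimated 12500000 to 15800000 fragments. The 14 epithelial, 9 stromal and 6 smooth muscle genes listed for comparison had summed levels of at least 894.8, 2650 and 3691 FPKM in every library. Most of them are general genes of these layers, so their sums cannot tell the uterus from other organs with the same layers.

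No gene changed between the groups at an adjusted p of 0.05. That is 0 of 12640 genes tested (0%) in limma with Benjamini-Hochberg adjustment, and 630 genes (4.98%) had an unadjusted p below 0.05. With 1 library left out, this last number ranged from 345 (without Nat10 d/d replicate 1) to 1700 (without Nat10 d/d replicate 2). A gene was tested if it reached 1 FPKM in at least 3 libraries, and fold changes are on the scale of log2(FPKM + 1), which understates changes of low genes. Of the 10 gland genes, 6 passed this filter (Foxa2, Sox9, Sox17, Pax8, Lgr5 and Cxcl15) and 4 did not (Lif, Spink1, Prss28 and Prss29). The gland genes therefore gave 0 calls, against the background of 0%. In whole tissue, fewer cells of a type and less RNA per cell cannot be told apart.

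In the 3 control libraries the gland genes covered a wide range of levels. Sox17 was the highest, at 89.0 ± 5.04 FPKM (SD, n = 3), above 96.3% of all listed genes. Pax8 followed at 11.7 ± 1.48 FPKM and Lgr5 at 8.41 ± 0.813 FPKM (SD, n = 3). Cxcl15 at 2.55 ± 1.06 FPKM and Foxa2 at 2.32 ± 0.352 FPKM had overlapping control ranges, so their order is not resolved. Sox9 at 1.48 ± 0.351 FPKM lay below the whole control range of Foxa2. Lif was at 0.49 ± 0.111 FPKM. Spink1, Prss28 and Prss29 were listed at 0 in 2 of 3 controls, and their control ranges overlapped with each other. The range of Spink1 also held that of Lif, while those of Prss28 and Prss29 lay below it.

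**Figure D1:**
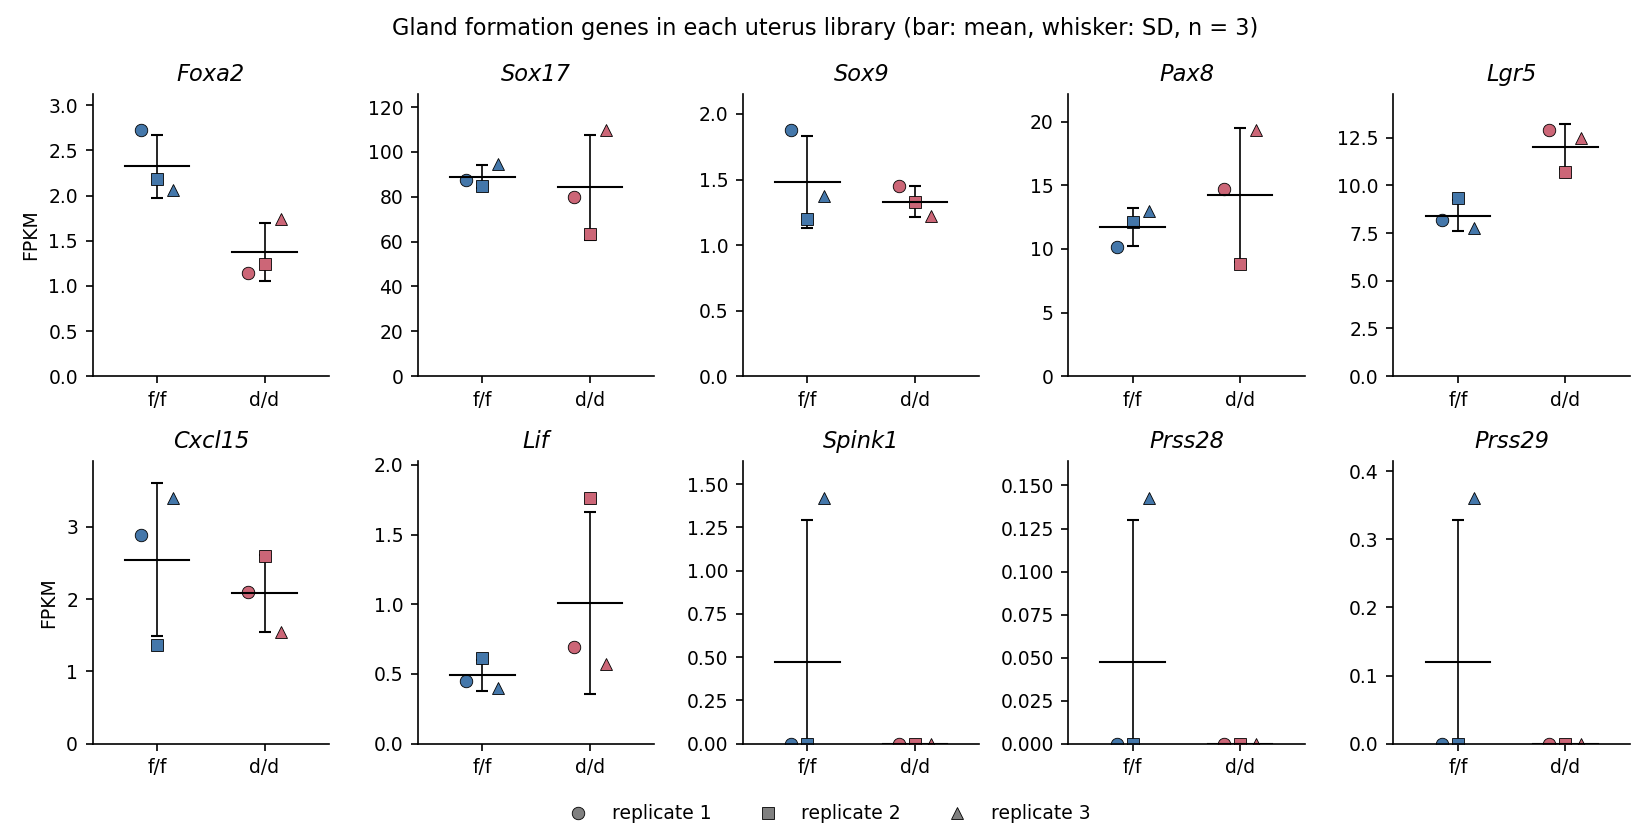
FPKM of the 10 gland formation genes in each library, with Nat10 f/f in blue and Nat10 d/d in red; marker shape gives the replicate number, the horizontal bar the mean and the whisker the SD of 3 libraries, and each panel has its own axis from 0. Foxa2 lies at 2.06 to 2.72 in controls and 1.14 to 1.75 in Nat10 d/d, Lgr5 at 7.74 to 9.31 and 10.7 to 12.9, and Spink1, Prss28 and Prss29 are above 0 in Nat10 f/f replicate 3 alone.

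Foxa2 (ENSMUSG00000037025, chromosome 2, 148042877 to 148046969, minus strand, GRCm38) was lower in every Nat10 d/d library than in any control. It was at 2.72, 2.18 and 2.06 FPKM in Nat10 f/f replicates 1, 2 and 3. In Nat10 d/d replicates 1, 2 and 3 it was at 1.14, 1.248 and 1.75 FPKM. The groups did not overlap, although Nat10 d/d replicate 3 came close to the lowest control. The Nat10 d/d mean, 1.38 ± 0.322 FPKM (SD, n = 3), was 59.3% of the control mean. The log2 change was -0.49 (SE 0.17, 95% interval -0.89 to -0.08). This did not pass the threshold (limma, adjusted p 0.922, unadjusted p 0.024), and the exact two-sided permutation p was 0.1, the lowest value open to a design of 3 libraries against 3. Groups separated downward in 4.60% of all genes tested, and in either direction in 10.7%. The Foxa2 values rest on an estimated 30 to 90 fragments per library, for which counting alone gives an error of 18.3% to 10.5%.

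Foxa1, the closest relative of Foxa2, was listed at 0 in all 6 libraries, and Foxa3 did not exceed 0.238 FPKM. Foxa2 was thus the member of its family with the highest level here. The 5 tested genes whose profile over the 6 libraries was most like that of Foxa2, by root mean square difference of log2 profiles centred on the control mean, were Sox7 (0.071), Frem2 (0.0766), Col13a1 (0.0779), Hic1 (0.0806) and Tgfb3 (0.0819). Sox7, an endothelial SOX gene, was at 7.58 to 9.71 FPKM in controls and 4.73 to 6.37 FPKM in Nat10 d/d. Since these 5 genes were picked from 8294 candidates for their likeness, their separation between groups is a description.

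Lgr5 (ENSMUSG00000020140, chromosome 10, 115450311 to 115587780, minus strand) was higher in every Nat10 d/d library than in any control. It was at 8.16, 9.31 and 7.74 FPKM in Nat10 f/f replicates 1, 2 and 3. In Nat10 d/d replicates 1, 2 and 3 it was at 12.9, 10.7 and 12.5 FPKM. The groups did not overlap, and the Nat10 d/d mean of 12.02 ± 1.17 FPKM was 1.43 times the control mean of 8.41 ± 0.813 FPKM (SD, n = 3). The log2 change was 0.47 (SE 0.12, 95% interval 0.18 to 0.76; limma adjusted p 0.922, unadjusted p 0.00578). The exact permutation test again gave the smallest possible two-sided p, 0.1. Upward separation was found in 6.12% of all genes tested. When libraries were weighted by their quality, Lgr5 passed the threshold (limma adjusted p 0.0386, log2 change 0.56; range of adjusted p over all alternatives 0.0386 to 1). In that weighted fit, 316 of all 12640 genes tested passed. The weights were 3.74, 0.224 and 0.451 for Nat10 d/d replicates 1, 2 and 3, so that the weighted Nat10 d/d level came mostly from replicate 1. Without Nat10 d/d replicate 2 and with equal weights, Lgr5 did not pass (limma adjusted p 0.154). Lgr5 rests on an estimated 501 to 795 fragments per library. A930009A15Rik, annotated on the opposite strand within Lgr5, was at 0.199 FPKM or less in every library.

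**Figure D2:**
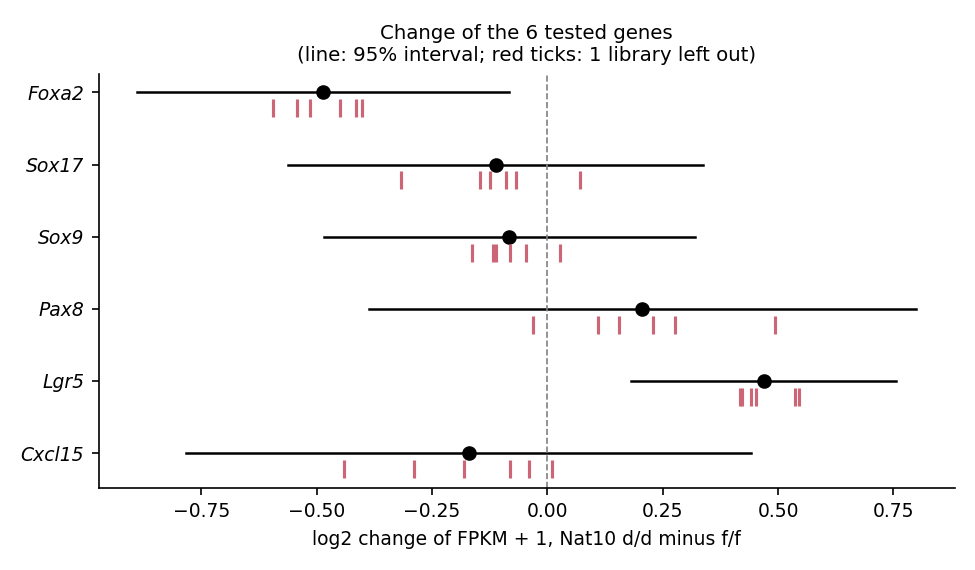
Log2 change of FPKM + 1 (Nat10 d/d minus f/f) for the 6 tested gland genes, with the 95% interval of the limma fit as a line and the changes with 1 library left out as red ticks. The intervals of Foxa2 (-0.89 to -0.08) and Lgr5 (0.18 to 0.76) lie to one side of 0, while ticks of Sox17, Sox9, Pax8 and Cxcl15 fall on both sides.

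Lgr5 belongs to a small receptor family and acts with R-spondins and the Wnt co-receptors. Lgr4, its broadly expressed relative, was at 10.5 to 11.02 FPKM in controls and at 12.5, 9.37 and 14.2 FPKM in Nat10 d/d replicates 1, 2 and 3 (log2 change 0.13), and the groups overlapped. Lgr6 stayed between 0.653 and 1.03 FPKM. Among the R-spondin ligands, Rspo3 was the most abundant, at 72.4 to 80.6 FPKM in controls and 61.3 to 87.6 FPKM in Nat10 d/d. Rspo1 was at 19.0, 20.6 and 24.6 FPKM in controls and at 16.3, 14.1 and 16.7 FPKM in Nat10 d/d, without overlap (log2 change -0.42, limma adjusted p 0.922). Rspo2 and Rspo4 did not exceed 0.200 FPKM.

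Of 18 genes for R-spondins, Lgr receptors and Wnt transduction, 14 were tested and 0 passed in either direction. Their median log2 change was -0.01, against 0.03 over all genes tested, with 7 above 0 and 7 below. Axin2, a general target gene of Wnt signalling, was at 21.5 to 32.6 FPKM in controls and 21.03 to 32.8 FPKM in Nat10 d/d. After Rspo1, the gene with the smallest p was Tcf7l1, a TCF factor (log2 change -0.21, limma adjusted p 0.925). Rspo1 was the 1 gene of the 14 whose groups did not overlap, against 10.7% of all genes tested.

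Sox17 (ENSMUSG00000025902, chromosome 1, 4490931 to 4497354, minus strand) had overlapping groups, with a wider spread in Nat10 d/d than in controls. It was at 87.5, 84.9 and 94.6 FPKM in Nat10 f/f replicates 1, 2 and 3. In Nat10 d/d replicates 1, 2 and 3 it was at 79.7, 63.4 and 110 FPKM. Nat10 d/d replicates 1 and 2 lay below every control and replicate 3 above every control. The mean in Nat10 d/d was 84.3 ± 23.4 FPKM against 89.0 ± 5.04 FPKM in controls (SD, n = 3), with a log2 change of -0.11 (95% interval -0.56 to 0.34; limma adjusted p 0.973). The change was 0.07 without Nat10 d/d replicate 2 and -0.32 without replicate 3. SOX17 is also a factor of arterial endothelium, and 11 of the 12 tested endothelial genes had a log2 change below 0 (median -0.23). The groups of 3 of the 12, Kdr, Sox7 and Tek, separated downward and those of 0 upward, where 4.60% and 6.12% of all genes tested did. Their summed level was 442.8 to 516.2 FPKM in controls and 420.4, 395.9 and 503.1 FPKM in Nat10 d/d replicates 1, 2 and 3. The part of endothelial RNA in the Sox17 values was not tested.

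The 5 genes with profiles most like that of Sox17 were Cds2, Snrk, Rusc2, Cpe and Aatk, with root mean square differences of 0.023, 0.0286, 0.0369, 0.0378 and 0.0389 over the 6 libraries, out of 9622 candidates. Cpe, for example, was at 187 to 208 FPKM in controls and at 186, 142 and 237 FPKM in Nat10 d/d replicates 1, 2 and 3. Sox18, a relative of Sox17 in endothelium, was at 22.6 to 32.9 FPKM in controls and 20.5 to 27.9 FPKM in Nat10 d/d (log2 change -0.29, limma adjusted p 0.922).

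Pax8 (ENSMUSG00000026976), a Müllerian epithelial factor, had the same order among the Nat10 d/d libraries as Sox17. Controls were at 10.1, 12.1 and 13.0 FPKM. Nat10 d/d replicates 1, 2 and 3 were at 14.7, 8.82 and 19.3 FPKM. Replicate 2 was again below all controls, while replicates 1 and 3 were above them. The log2 change was 0.21 (95% interval -0.39 to 0.80; limma adjusted p 0.953), 0.49 without Nat10 d/d replicate 2 and -0.03 without replicate 3. Pax2, the related factor, was at 12.2 to 13.4 FPKM in controls and at 13.6, 9.32 and 15.3 FPKM in Nat10 d/d replicates 1, 2 and 3.

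The order of Sox17, Pax8 and Pax2 in the Nat10 d/d libraries was also that of the summed epithelial genes, and the reverse of the proliferation genes. In the controls Pax8 and Pax2 kept the epithelial order and Sox17 did not, and none of these genes ran in reverse of the proliferation genes. The 14 epithelial genes, among them Cdh1, Epcam and Krt8, summed to 966.8, 972.7 and 1024 FPKM in controls and to 1022, 894.8 and 1236 FPKM in Nat10 d/d replicates 1, 2 and 3. The 12 proliferation genes, such as Mki67 and Top2a, summed to 100.8, 26.65 and 67.34 FPKM in controls and to 24.32, 243 and 12.99 FPKM in Nat10 d/d replicates 1, 2 and 3. The part of either in the Sox17 and Pax8 values was not tested.

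**Figure D3:**
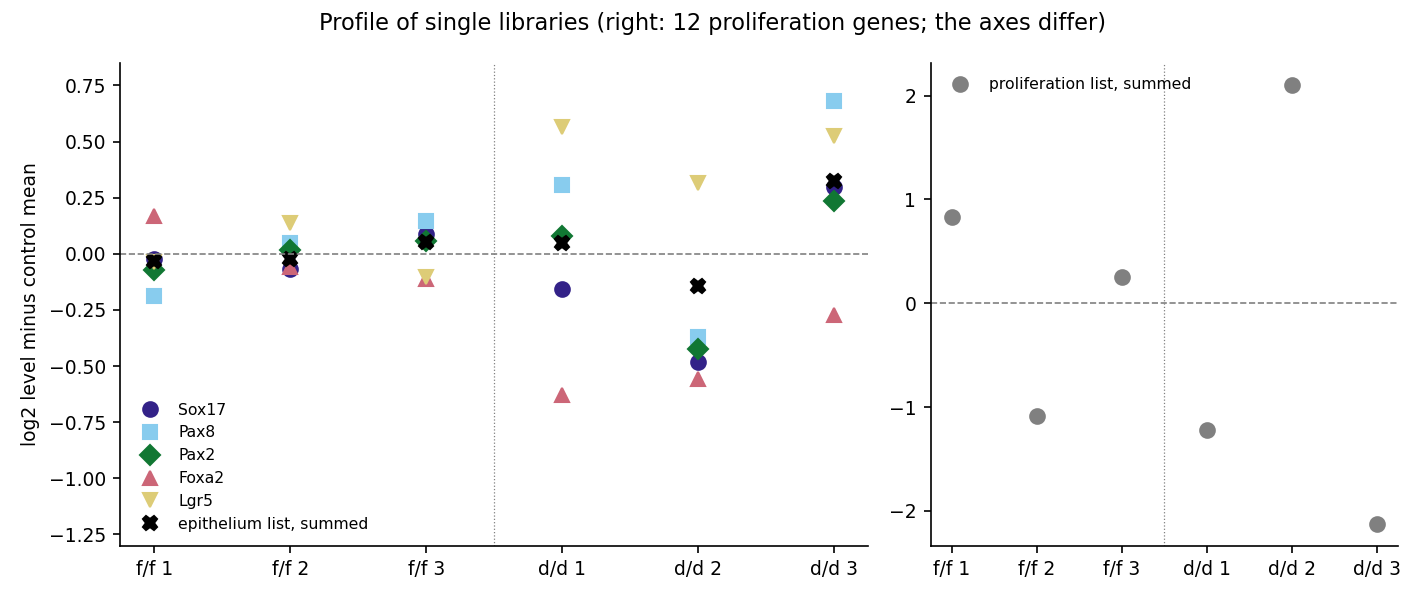
Left, log2 level in each library minus the control mean for Sox17, Pax8, Pax2, Foxa2 and Lgr5 (log2 of FPKM + 1) and for the summed epithelial genes (log2 of FPKM); right, the same for the summed proliferation genes, on an axis of its own. In Nat10 d/d replicate 2 Sox17, Pax8 and Pax2 lie at -0.48, -0.37 and -0.43 and the proliferation genes at 2.10, and in replicate 3 the first 3 lie at 0.30, 0.68 and 0.24 and the proliferation genes at -2.12, while Foxa2 is below 0 and Lgr5 above 0 in all 3 Nat10 d/d libraries.

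Foxa2 and Lgr5 kept their separation when each was set against the epithelial genes of its own library. As a share of the summed FPKM of those 14 genes, Foxa2 was at 0.282%, 0.225% and 0.201% in controls and at 0.112%, 0.14% and 0.141% in Nat10 d/d replicates 1, 2 and 3. Lgr5 was at 0.844%, 0.958% and 0.756% in controls and at 1.26%, 1.19% and 1.01% in Nat10 d/d. The exact permutation test gave p = 0.1 for each. By this measure, 8.43% of all genes tested separated downward and 1.60% upward. Sox17 was at 8.72% to 9.23% in controls and at 7.79%, 7.09% and 8.87% in Nat10 d/d replicates 1, 2 and 3, so that its groups met in replicate 3 (exact permutation p = 0.2). Pax8 overlapped, at 1.05% to 1.27% in controls and 0.985% to 1.56% in Nat10 d/d. With the mean epithelial level as an added term in limma, the log2 changes of Foxa2, Lgr5, Sox17 and Pax8 were -0.55, 0.44, -0.26 and 0.02, and none passed the threshold (adjusted p 0.254 to 0.973).

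**Figure D4:**
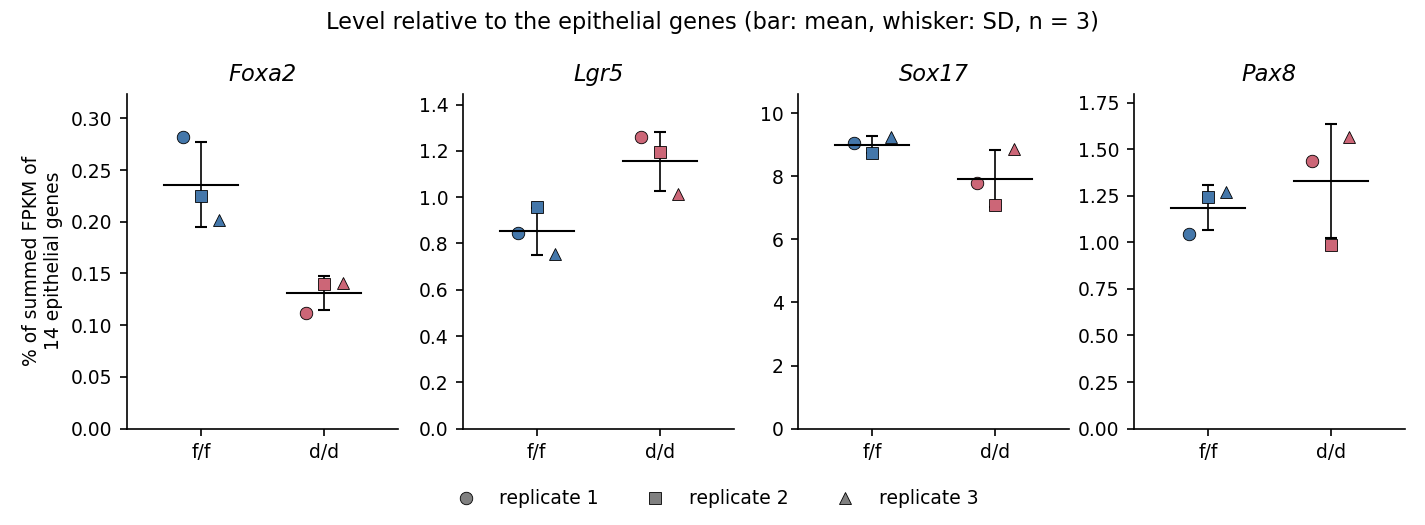
FPKM of Foxa2, Lgr5, Sox17 and Pax8 as a percentage of the summed FPKM of 14 epithelial genes in the same library, with Nat10 f/f in blue and Nat10 d/d in red, bars for means and whiskers for SD (n = 3); each axis starts at 0. The 3 Nat10 d/d libraries lie below the controls for Foxa2 (0.112% to 0.141% against 0.201% to 0.282%) and above them for Lgr5 (1.01% to 1.26% against 0.756% to 0.958%).

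Sox9 (ENSMUSG00000000567), a SOX factor of epithelial progenitors, was low in both groups, which overlapped. It was at 1.88, 1.201 and 1.37 FPKM in controls and at 1.45, 1.33 and 1.22 FPKM in Nat10 d/d. All 3 Nat10 d/d values lay inside the control range. The log2 change was -0.08 (95% interval -0.48 to 0.32; limma adjusted p 0.983). The related genes Sox8 and Sox10 were at 1.23 FPKM or less in every library.

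Among the secreted products, Cxcl15 (ENSMUSG00000029375), a chemokine used as a marker of glandular epithelium, was the one that passed the filter on low values. It was at 2.88, 1.36 and 3.40 FPKM in Nat10 f/f replicates 1, 2 and 3. In Nat10 d/d replicates 1, 2 and 3 it was at 2.10, 2.60 and 1.54 FPKM. The controls held both the lowest and the highest value, and every Nat10 d/d library lay between them. The log2 change was -0.17 (95% interval -0.78 to 0.44; limma adjusted p 0.97), -0.44 without Nat10 f/f replicate 2 and 0.01 without Nat10 f/f replicate 3.

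Lif (ENSMUSG00000034394) was below the filter. It was at 0.452, 0.615 and 0.402 FPKM in controls and at 0.697, 1.76 and 0.571 FPKM in Nat10 d/d replicates 1, 2 and 3. Nat10 d/d replicate 2 was the highest library, and Nat10 d/d replicate 3 lay inside the control range. These values rest on an estimated 22 to 35 fragments in 5 libraries and 112 in Nat10 d/d replicate 2. A fit without the filter put the log2 difference at 0.39 with an SE of 0.21 (limma adjusted p 0.921 over 16745 genes). The receptor subunits were far more abundant. Il6st, which encodes the shared signalling subunit gp130, was at 131, 133 and 149 FPKM in controls and 97.7, 104 and 122 FPKM in Nat10 d/d, without overlap (log2 change -0.35, limma adjusted p 0.922). Lifr was at 13.4 to 14.98 FPKM in controls and 9.09 to 18.6 FPKM in Nat10 d/d. Of 12 genes of Lif family signalling, 8 were tested and 0 passed, with a median log2 change of -0.03. The groups also did not overlap for Jak1, a kinase of this pathway (log2 change -0.15). With Il6st, that made 2 of the 8 separated downward and 0 upward, where 4.60% and 6.12% of all genes tested separated. Il11ra1, a related receptor gene, overlapped (log2 change -0.18).

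Spink1, Prss28 and Prss29 were listed at 0 in 5 of 6 libraries, among them all 3 from Nat10 d/d mice. SPINK1 is a trypsin inhibitor, and Prss28 and Prss29 encode implantation serine proteinases of the glands. In Nat10 f/f replicate 3 they were at 1.42, 0.143 and 0.361 FPKM, or an estimated 14, 2 and 6 fragments. A count of 0 allows levels of up to 3 fragments, which is at most 0.328 FPKM for Spink1, 0.201 FPKM for Prss28 and 0.203 FPKM for Prss29. The Prss28 value in Nat10 f/f replicate 3 is itself below that limit. These limits cover counting error only. No change between groups can be stated for these genes, since 2 of 3 controls were at 0 as well. Nat10 f/f replicate 3 had 94 genes that were above 0 in no other library, the fewest of the 6 libraries (94 to 123), and Spink1 had the highest value among them. Spink1 is also abundant in exocrine pancreas. Of 6 pancreatic genes, Cel, Ctrb1, Ptf1a, Cpa1 and Pnlip were at 0 in that library, and Cela1 was at 0.866 FPKM there and at 0.207 to 0.773 FPKM in the others.

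Prss28 (chromosome 17, 25308646 to 25311876) and Prss29 (25318654 to 25322684) lie next to each other on the plus strand, 6777 bases apart. Their longest transcripts in GENCODE M21 are 68.7% identical over 1117 aligned positions. Pooled over all annotated transcripts of each gene, Prss28 has 1167 distinct windows of 50 bases, of which 0 occur in Prss29. Promoter sequences of 6 of the 10 genes were given in RefSeq (GRCm38.p6). Among the 4 of these genes that encode secreted proteins (Cxcl15, Lif, Prss28 and Prss29), the 250 bases before the start site are shown for Cxcl15, Prss28 and Prss29. These 3 were picked because each holds the letters TATAAA, in capitals, on the strand of the gene and close to the start.
Cxcl15 promoter, chr5:90794284-90794533, plus strand: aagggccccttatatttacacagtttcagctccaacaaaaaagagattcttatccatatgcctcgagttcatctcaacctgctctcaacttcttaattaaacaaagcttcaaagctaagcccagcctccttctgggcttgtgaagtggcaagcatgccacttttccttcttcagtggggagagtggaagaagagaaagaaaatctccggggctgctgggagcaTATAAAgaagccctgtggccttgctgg
Prss28 promoter, chr17:25308396-25308645, plus strand: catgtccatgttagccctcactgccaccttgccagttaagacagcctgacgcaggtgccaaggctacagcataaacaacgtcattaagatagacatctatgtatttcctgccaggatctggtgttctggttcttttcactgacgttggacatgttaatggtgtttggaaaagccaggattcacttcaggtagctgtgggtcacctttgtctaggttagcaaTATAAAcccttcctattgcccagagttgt
Prss29 promoter, chr17:25318404-25318653, plus strand: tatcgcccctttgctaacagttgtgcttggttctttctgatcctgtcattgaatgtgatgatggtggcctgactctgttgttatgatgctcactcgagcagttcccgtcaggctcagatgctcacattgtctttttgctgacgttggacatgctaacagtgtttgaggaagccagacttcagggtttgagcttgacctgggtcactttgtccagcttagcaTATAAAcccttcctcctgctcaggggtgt

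The TATAAA began 27 bases before the start of Cxcl15 and 29 bases before those of Prss28 and Prss29. Of 32851 promoter windows of this length in RefSeq, 12.4% held TATAAA on either strand, and 1.75% held it on the strand of the gene with its first base 25 to 35 bases before the start. The windows of Prss28 and Prss29 were 71.6% identical, and their longest shared run was 15 bases. The windows of Pax8 and Lif held no TATAAA, and of the 3 windows of Foxa2, 1 held it on the opposite strand. The letters TGTTTAC (a forkhead motif), AACAAT (a SOX motif) and CTTTGAT (a TCF/LEF motif), searched on both strands, occurred in 3.17%, 9.42% and 3.21% of all windows and in none of the 8 windows of these 6 genes. Cxcl15, with a level in all 6 libraries, and Prss28 and Prss29, at 0 in 5 of 6, thus had the same letters at nearly the same place. A match of letters is a description of the sequence and not of binding.

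Other genes known from uterine glands were set beside the 10. Of 10 such genes, 6 were tested and 0 passed, with a median log2 change of 0.15 (4 above 0 and 2 below). Prom1, a membrane protein of glandular and progenitor epithelium, was at 13.0, 13.1 and 13.4 FPKM in controls and at 16.5, 16.4 and 18.8 FPKM in Nat10 d/d, without overlap (log2 change 0.36, limma adjusted p 0.922). It was the 1 gene of the 6 to separate, against 6.12% of all genes tested upward and 4.60% downward. Aldh1a1, a retinaldehyde dehydrogenase of gland epithelium, was at 25.2, 12.8 and 15.3 FPKM in controls and at 29.6, 35.6 and 22.1 FPKM in Nat10 d/d, where replicate 3 lay inside the control range (log2 change 0.71, limma adjusted p 0.922). Ttr and Wfdc3 did not exceed 0.67 FPKM in any library.

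Regulators of gland development formed a list of 21 genes, of which 20 were tested and 0 passed. Their median log2 change was -0.04, with 9 above 0 and 11 below. The groups did not overlap for 6 of the 20, 4 lower and 2 higher, where 4.60% of all genes tested separated downward and 6.12% upward. The lower genes were Pgr, the progesterone receptor gene (log2 change -1.06, limma adjusted p 0.669), and the Wnt pathway genes Wnt16 (-0.59), Wnt5a (-0.45) and Dkk2 (-0.34). Wnt16 was at 38.7, 29.4 and 36.7 FPKM in controls and at 18.9, 22.6 and 27.4 FPKM in Nat10 d/d. The higher genes were Wnt7a, a Wnt ligand of luminal epithelium (0.66), and the receptor gene Fzd10 (0.33). Wnt7a was at 9.65, 13.4 and 13.8 FPKM in controls and at 21.1, 24.7 and 14.8 FPKM in Nat10 d/d. Hoxa10 and Hoxa11, which pattern the uterus, were at 132 to 148 FPKM and 71.4 to 86.7 FPKM in controls, with log2 changes of -0.05 and -0.04.

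Of the 14 epithelial genes tested, 9 had a log2 change above 0 and 5 below, 0 passed the threshold, and the median was 0.09. The groups of 3 of them, Cldn7, Epcam and Esrp1, separated upward and those of 0 downward, where 6.12% and 4.60% of all genes tested did. Cldn7, a tight junction gene, was at 46.7, 51.3 and 43.9 FPKM in controls and at 74.9, 67.8 and 58.3 FPKM in Nat10 d/d (log2 change 0.49, limma adjusted p 0.922). Lpar3, a luminal epithelial gene, had a log2 change of 0.36, and its groups overlapped. The oviduct also expresses Pax8 and Sox17. Of genes of the oviduct and of ciliated cells, 6 were listed, and the ciliated cell factor Foxj1 did not exceed 0.396 FPKM. The 6 had summed levels of 7.26 to 10.87 FPKM in controls and 6.811 to 9.45 FPKM in Nat10 d/d. Within that sum, Rsph1, a gene of the ciliary radial spoke, was at 1.10, 1.01 and 2.06 FPKM in controls and 2.496, 2.70 and 2.35 FPKM in Nat10 d/d, without overlap (log2 change 0.58, limma adjusted p 0.922). Ovgp1, the oviductal glycoprotein gene, was at 1.73 to 6.42 FPKM in controls and 0.817 to 4.01 FPKM in Nat10 d/d (log2 change -0.71, limma adjusted p 0.924). The part of oviductal cells in the Pax8 and Sox17 values was not tested. Stromal genes had a median log2 change of -0.17 (8 of 9 below 0), with Mfap5 at -0.47 and Pdgfra at -0.46.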

How the data were processed

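TRIzol extraction and the TruSeq RNA kit are given in the labels' protocols. HISAT2 2.2.1, Cufflinks 2.2.1 and the build mm10 are named in the submitters' processing notes. The deposited values were taken as FPKM made by the authors, 1 table per library. The file headers name no unit, and this one was inferred from Cufflinks and from the values. Annotation, gene filter and strandedness are not given in the sources used here, and opposite-strand genes cannot be told apart. Of 20637 identifiers, 20558 matched GENCODE M21 (GRCm38), which gave coordinates and transcript lengths.

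Values were analysed as log2(FPKM + 1). Genes with at least 1 FPKM in at least 3 libraries (12640) were fitted with limma 3.58.1 (lmFit, eBayes with trend) in R 4.3.3, with group as the only term and Benjamini-Hochberg adjustment over all of them. The design's count branch was not used. The script was tested on simulated data. Single genes were also compared by exact two-sided permutation (scipy 1.17.1).

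Depth was estimated from genes with 1 transcript over 1500 bases, as the most frequent low product of FPKM and length, taken as 1 fragment. The libraries' depths differed by at most 1.26 times, and a number of fragments is an estimate that depends on the transcript length used. No pair of libraries held identical values.

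Named genes are the 10 gland genes, Nat10, their partners and paralogues, the 2 tested members of each list with the smallest p, and the 5 nearest profiles of Foxa2 and Sox17. Cdh1, Krt8, Mki67 and Top2a are named only as examples of their lists. Rspo2, Axin2, Jak1, Dkk2, Wnt5a, Fzd10, Lpar3, Hoxa10, Hoxa11, Foxj1, Ttr, Wfdc3, Epcam, Tek, Tie1, Col1a1, Upk1b, Wt1 and the pancreatic genes, the shares of summed epithelium and the promoter motifs were added after values were seen. One gene that the rule names is not reported here. The members and lists were chosen with earlier results of these data known. Alternatives were other scalings, filters, pseudocount, trend, array weights, a replicate block, epithelial content, and leaving out each library. Figures were drawn with matplotlib 3.10.9.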

Additional observations from a re-analysis of the deposited data

How the results depend on the processing

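Foxa2 stayed lower and Lgr5 higher in all 16 alternatives, with log2 changes of -0.73 to -0.40 and 0.42 to 0.56. Foxa2 passed the threshold in none of them (limma adjusted p 0.0531 to 1). With array quality weights, limma called 316 of 12640 genes tested, against 0 with equal weights. Among them were 1 of the 6 gland genes tested (Lgr5) and 11 of the 117 genes of the context lists, against 0 and 0. The 11 were Cd52, Cldn7 and Wnt7a, higher in Nat10 d/d, and Col1a1, Il6st, Wnt16, Pgr, Tie1, Lrrn4, Kdr and Sox7, lower (adjusted p 0.0275 to 0.0489). Leaving out 1 library gave 0 to 12 genes over all, 0 gland genes, and 0 to 1 genes of the context lists. The 12 genes (of 12531 tested) and the 1 gene (Col1a1, of 116) appeared without Nat10 d/d replicate 2. Genes with an unadjusted limma p below 0.05 numbered 630 in the main fit. They numbered 1866 with epithelial content as a term and 3730 with array quality weights. Leaving out 1 library moved the log2 change across 0 for Sox9 (-0.16 to 0.03; 0.0286 without Nat10 f/f replicate 1), Sox17 (-0.32 to 0.07; 0.0719 without Nat10 d/d replicate 2), Cxcl15 (-0.44 to 0.01; 0.0099 without Nat10 f/f replicate 3) and Pax8 (-0.03 to 0.49; -0.0313 without Nat10 d/d replicate 3). The cause was not tested. With a replicate block, 0 genes were called over all, 0 gland genes and 0 genes of the context lists, and the unadjusted p of Foxa2 was 0.0542. Correlations of the deviations from the group mean do not settle whether the replicate numbers pair the libraries. They were -0.341, -0.029 and 0.1 for same-numbered libraries and -0.244 to 0.273 for differently numbered ones. The DESeq2 alternative was not run, because the files hold no counts. Depth limits Spink1, Prss28 and Prss29 most, with 0 to 14 estimated fragments per library. It also limits Lif (22 to 112), Foxa2 (30 to 90), Cxcl15 (37 to 99) and Sox9 (64 to 121).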

Other observations

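Other cell types listed for comparison gave these values, with 0 genes called in each list. The mesothelial genes Lrrn4 and Msln had log2 changes of -0.70 and -0.51 without overlap between groups (limma adjusted p 0.922 for each), while Upk1b and Wt1 were at 0.12 and 0.04, and the median of the 5 mesothelial genes was -0.31. Over all genes tested, 4.60% separated downward. The endothelial receptor gene Kdr was at 27.4 to 28.1 FPKM in controls and 18.5 to 20.6 FPKM in Nat10 d/d (log2 change -0.47, limma adjusted p 0.806). The 6 smooth muscle genes were centred on a log2 change of 0.00, with Cnn1 at 0.13 and Myh11 at -0.06. The 6 leukocyte genes tested had log2 changes on both sides of 0, with a median of -0.08, Cd52 at 0.45 and Ptprc at 0.25. Both overlapped between groups (limma adjusted p 0.922 and 0.943). Foxl2, listed as an ovarian gene, was at 26.7 to 28.9 FPKM in controls and 18.1 to 24.0 FPKM in Nat10 d/d (log2 change -0.37, limma adjusted p 0.922). It separated downward, as did 4.60% of all genes tested, while its fellow ovarian gene Inha overlapped between groups (log2 change 0.31). Of the other ovarian genes, Cyp19a1 and Zp3 were at 0 in every library. Nr5a1, Amh and Gdf9 did not exceed 0.0243, 0.683 and 1.58 FPKM. The proliferation genes Kif11 and Tpx2 had log2 changes of -0.37 (SE 0.77) and -0.34 (SE 0.85) and overlapped. Their mean levels went the other way, at 4.912 FPKM in Nat10 d/d against 4.062 in controls for Kif11, and 7.726 against 5.769 for Tpx2. For both genes Nat10 d/d replicate 2 lay above every control, at 12.95 and 20.09 FPKM. Nat10 d/d replicates 1 and 3 lay below every control.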
